A study of Rattus norvegicus with 24 samples.

Results

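The vascular, barrier and meningeal genes are genes of the cells that line, wrap and surround brain blood vessels and of the membranes that cover the brain. A list of 35 symbols was looked up in the expression files by gene name, and 33 of them were present among 23950 genes. Pecam1 and Abcb1a were not found by symbol. The 33 genes comprised 9 endothelial genes, 5 barrier transporters, 6 mural genes, 8 genes of collagens and fibroblast matrix, and 5 meningeal regulators and arachnoid genes. Membership went by gene name and used no measured value, but the list was drawn up with earlier results of these data known.

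RNA was sequenced from the nucleus accumbens (NAc), a ventral forebrain region of the reward circuit, of Sprague Dawley rat pups at postnatal day (P) 14. There were 24 libraries in 6 groups of 4, formed by generation (F1 or F2) and by oxycodone exposure of the lineage. In the in utero oxycodone (IUO) groups the founding dams were gavaged at 10 mg/kg/day, rising to 15 mg/kg/day, from before mating until weaning. In the postnatal oxycodone (PNO) groups the founding dams received 15 mg/kg/day from birth of the litter until weaning. Saline (SAL) groups were the controls. The F2 pups were born to F1 females that were not themselves dosed and were bred with naive males, so F1 pups met the drug through the dam and F2 pups descended from exposed females. Pups of either sex were taken at random, and the sources used here do not give the sex or litter of each pup. The p-values therefore measure the spread between these pups, and littermates could be among them.

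Brain capillaries are tubes of endothelial cells sealed by tight junctions, through which nutrients pass on dedicated transporters. Pericytes and smooth muscle cells, together called mural cells, wrap this tube and share a basement membrane with it that is built largely of type IV collagen. Fibroblasts of the meninges and of larger vessels make the fibrillar collagens and proteoglycans, and the meninges also supply retinoic acid to the developing brain.

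Levels are given in FPKM, fragments per kilobase of transcript scaled to the mapped total of the library, which corrects for gene length. The endothelial tight junction gene Cldn5 was listed at 0 in 22 of 24 libraries, at 3.7 FPKM in F1 PNO 1 and at 5.76 FPKM in F2 SAL 3. The other 8 endothelial genes were above 0 in all 24 libraries, and 60 other genes of the whole table shared with Cldn5 a value of 0 in exactly 22 libraries together with 1 FPKM or more elsewhere. Cldn5 was therefore not used to mark endothelium, and it did not enter any comparison because it failed the filter on low values. Cdh5, which encodes the endothelial adherens junction cadherin, stood in for it. Pdgfrb, the pericyte receptor for platelet-derived growth factor, and Dcn, the fibroblast proteoglycan decorin, were measured in every library.

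The whole-series picture was uneven. Summed FPKM ranged from 535866 to 766781 per library, and the deposited values carry no read counts, so depth is unknown. Ttr, the thyroid hormone carrier made by choroid plexus, was 973 FPKM or more in 6 libraries (F1 SAL 1, F1 PNO 3, F1 IUO 3, F1 IUO 4, F2 PNO 4 and F2 IUO 1) and from 1.75 to 245 FPKM in the others. The summed level of 8 choroid plexus genes ran from 5.58 to 12257 FPKM over the libraries. The summed level of the 9 endothelial genes ran from 41.4 to 77.8 FPKM, and that of 20 further endothelial genes from 225 to 300 FPKM. In bulk tissue, fewer cells of a type and less RNA per cell cannot be told apart.

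**Figure D1:**
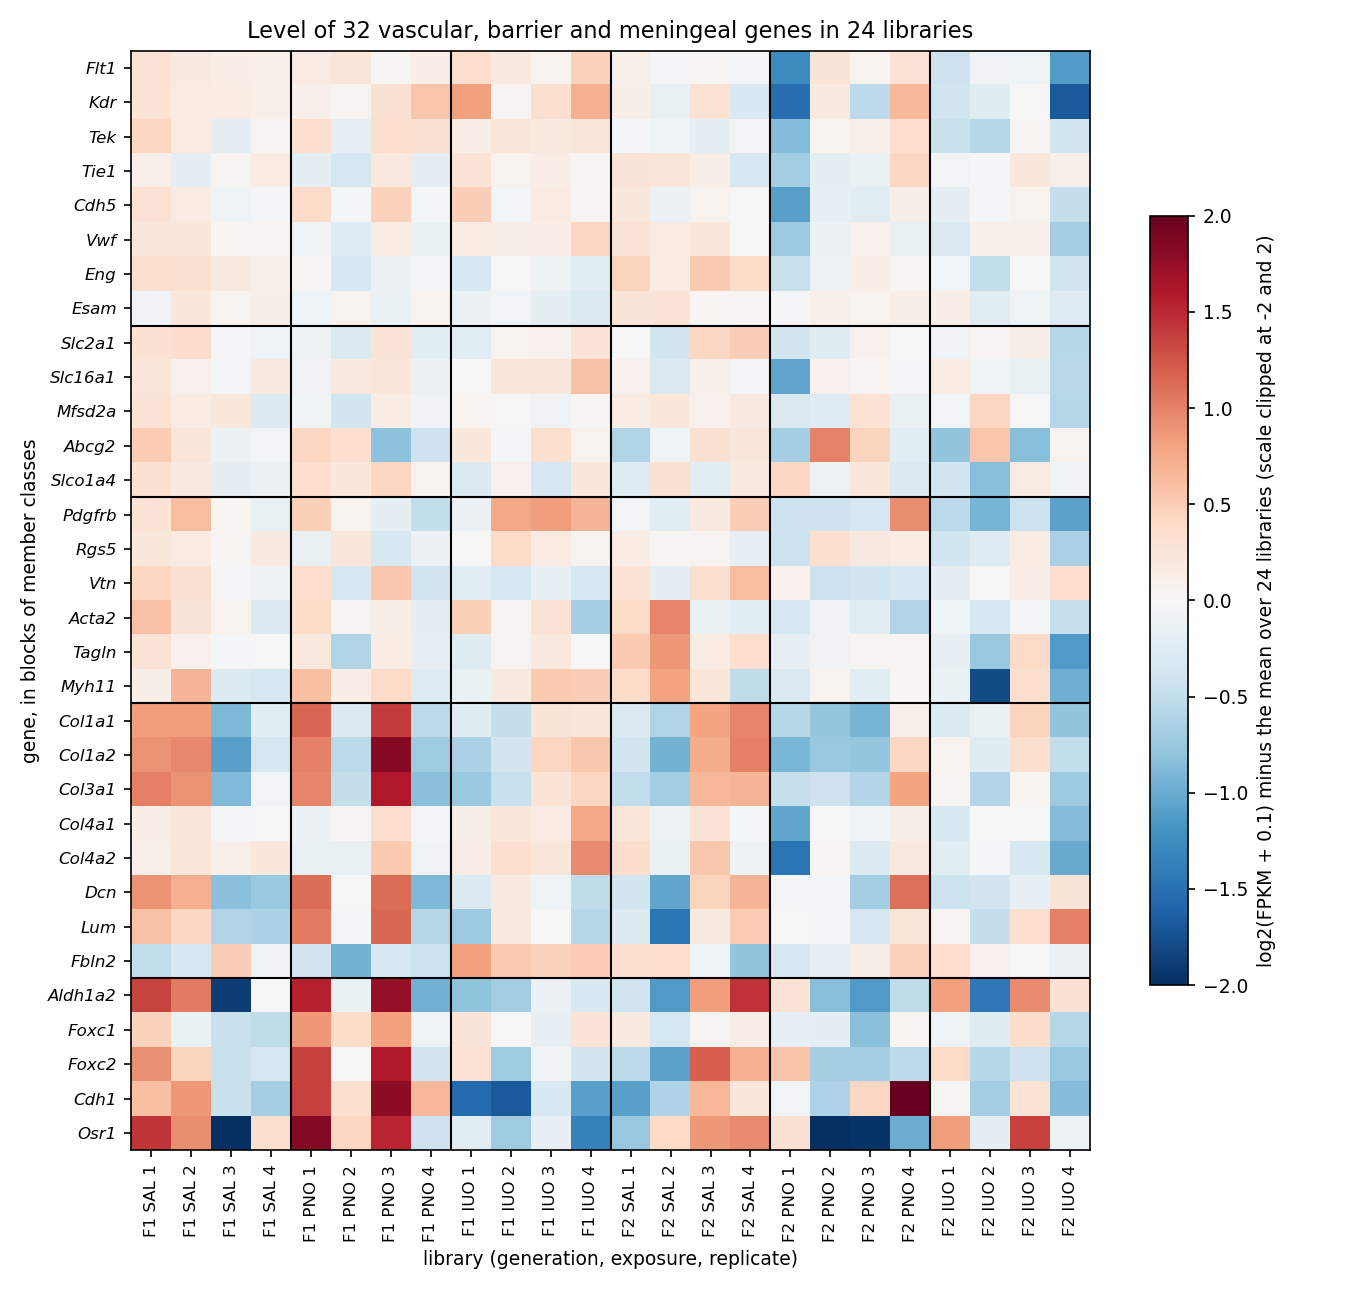
Heat map of 32 genes (rows, in 5 blocks by class, without Cldn5) in 24 libraries (columns, 6 groups of 4). Colour gives log2(FPKM + 0.1) minus the mean of that gene over the 24 libraries. The fibrillar collagen, Dcn, Lum and meningeal rows are red mainly in the same libraries, F1 SAL 1, F1 SAL 2, F1 PNO 1, F1 PNO 3 and F2 SAL 4, whereas the endothelial rows are bluest in F2 PNO 1 and F2 IUO 4.

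Promoters of 5 genes are shown before the values, because the results turn on them: the pair of type IV collagen genes that varied together, a type I collagen gene that varied with the fibroblast genes, and Eng and Fbln2, whose groups differed without overlap. Of the 33 genes, 20 were matched in a RefSeq promoter table (build GRCr8), which holds 250 bases before and 50 bases after each start site. The Col4a1 window lies at chr16:84885347-84885646 (plus strand) and the Col4a2 window at chr16:84885471-84885770 (minus strand). The Col1a2 window is chr4:33518307-33518606, the Eng window chr3:36332029-36332328 and the Fbln2 window chr4:125261409-125261708, all on the plus strand. Capitals mark 3 short motifs searched on both strands, the TATA box as TATAAA, the CCAAT box as CCAAT and the GC box as GGGCGG, and each sequence runs 5′ to 3′ on the strand of its gene.
Col4a1: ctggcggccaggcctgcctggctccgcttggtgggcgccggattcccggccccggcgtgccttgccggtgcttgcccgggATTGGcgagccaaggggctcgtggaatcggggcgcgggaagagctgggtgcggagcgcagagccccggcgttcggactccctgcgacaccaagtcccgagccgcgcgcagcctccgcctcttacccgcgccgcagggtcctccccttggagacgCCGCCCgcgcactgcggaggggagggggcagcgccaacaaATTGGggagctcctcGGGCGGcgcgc
Col4a2: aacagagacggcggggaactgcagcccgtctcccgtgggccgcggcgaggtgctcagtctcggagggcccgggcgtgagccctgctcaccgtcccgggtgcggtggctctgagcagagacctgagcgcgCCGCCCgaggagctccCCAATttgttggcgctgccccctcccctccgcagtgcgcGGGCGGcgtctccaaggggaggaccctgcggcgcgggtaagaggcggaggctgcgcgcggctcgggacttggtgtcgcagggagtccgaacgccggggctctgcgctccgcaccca
Col1a2: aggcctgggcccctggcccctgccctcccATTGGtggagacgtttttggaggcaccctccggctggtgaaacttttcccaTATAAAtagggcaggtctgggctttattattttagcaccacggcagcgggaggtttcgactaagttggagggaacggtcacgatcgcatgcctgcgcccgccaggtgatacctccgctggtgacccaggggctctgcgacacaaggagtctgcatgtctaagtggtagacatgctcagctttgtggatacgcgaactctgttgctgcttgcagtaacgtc
Eng: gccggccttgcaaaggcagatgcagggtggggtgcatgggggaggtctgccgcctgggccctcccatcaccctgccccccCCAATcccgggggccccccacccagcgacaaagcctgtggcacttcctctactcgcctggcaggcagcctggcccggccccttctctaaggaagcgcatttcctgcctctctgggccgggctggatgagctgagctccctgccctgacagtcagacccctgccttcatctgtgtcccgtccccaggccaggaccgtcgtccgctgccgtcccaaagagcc
Fbln2: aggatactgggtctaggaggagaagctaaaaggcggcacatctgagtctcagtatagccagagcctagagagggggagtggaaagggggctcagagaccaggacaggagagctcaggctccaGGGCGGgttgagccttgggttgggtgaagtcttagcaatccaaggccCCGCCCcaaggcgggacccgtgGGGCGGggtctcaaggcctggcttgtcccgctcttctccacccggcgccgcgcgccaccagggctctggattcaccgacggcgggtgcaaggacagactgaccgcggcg

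Col4a1 and Col4a2 are transcribed away from each other, with start sites 77 bases apart, so their windows share 176 bases and motifs inside the shared stretch appear in both on opposite strands. Neither holds TATAAA, whereas Col1a2 holds 1 copy. Of the 20 promoters, 3 held TATAAA (Col1a2, Flt1 and Slc2a1) against 14.2% of 33469 promoters in the table. CCAAT was found in 11 of 20 against 37.5%, and GGGCGG in 14 of 20 against 33.1%. The CArG box was found in 0 of 20 against 1.64%, and the smooth muscle genes Tagln and Myh11 were not among the 20. These matches are descriptions of letters in a window.

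Endothelial genes other than Cldn5 averaged between 3.41 and 16.3 FPKM, and their highest library exceeded their lowest from 1.49-fold in Esam to 6.05-fold in Kdr. Flt1, Kdr, Tek and Tie1 encode receptors for vascular growth factors and angiopoietins, and their means over 24 libraries were 3.51, 3.97, 3.41 and 7.17 FPKM. Cdh5 averaged 7.99 FPKM, and Vwf, the clotting factor stored in endothelium, averaged 8.28 FPKM. The endothelial adhesion molecule Esam averaged 12.8 FPKM and had the smallest range of the list. Eng encodes endoglin, a co-receptor of the transforming growth factor β family, and averaged 16.3 FPKM.

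Transporters of the barrier spanned a wider range of levels. The glucose transporter Slc2a1 averaged 34.9 FPKM, the monocarboxylate transporter Slc16a1 averaged 19.6 FPKM, and the lipid transporter Mfsd2a averaged 16.9 FPKM. The efflux pump Abcg2 and the organic anion transporter Slco1a4 were low, at 1.84 and 2.42 FPKM. None of these 5 genes passed the rule for a difference in any comparison below.

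Among mural genes, the pericyte regulator Rgs5 was the most abundant at 31.9 FPKM, followed by Vtn, which encodes vitronectin, at 19.6 FPKM. The smooth muscle genes Tagln, Acta2 and Myh11 averaged 17.6, 8.95 and 1.37 FPKM. Pdgfrb averaged 5.62 FPKM.

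Matrix genes fell into 2 kinds. The basement membrane collagens Col4a1 and Col4a2 averaged 35.2 and 26.0 FPKM. The fibrillar collagens Col1a1, Col1a2 and Col3a1 averaged 17.89, 12.61 and 17.97 FPKM, and the proteoglycans Dcn and Lum averaged 5.79 and 4.04 FPKM. Fbln2, encoding the matrix protein fibulin-2, averaged 9.96 FPKM. The meningeal genes were lowest: Aldh1a2, the retinoic acid-making enzyme, averaged 3.24 FPKM, the transcription factors Foxc1, Foxc2 and Osr1 averaged 1.91, 0.481 and 0.966 FPKM, and the epithelial cadherin Cdh1 averaged 0.396 FPKM.

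Spread between pups of the same group differed between the classes, which overlapped. The standard deviation (SD) within groups of log2(FPKM + 0.1) had a median of 0.27 for the 8 endothelial genes without Cldn5, 0.29 for barrier transporters, 0.36 for mural genes, 0.67 for the matrix class and 0.82 for the meningeal class. The median of all 13676 genes with a mean of 1 FPKM or more was 0.30, with quartiles of 0.21 and 0.47. Foxc2, Cdh1 and Osr1 of the meningeal class averaged under 1 FPKM, so those genes are not matched to them in level. Within the matrix class, Col4a1, Fbln2 and Col4a2 (0.33, 0.35 and 0.43) lay inside those quartiles, whereas Lum, Col1a1, Dcn, Col3a1 and Col1a2 (0.65 to 0.84) lay above them. Foxc1 (0.36) was the only meningeal gene inside. The highest library exceeded the lowest 14.2-fold for Aldh1a2, 40.0-fold for Osr1 and 96.5-fold for Cdh1, though the lowest values of the last 2 genes were 0.07 and 0.02 FPKM.

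**Figure D2:**
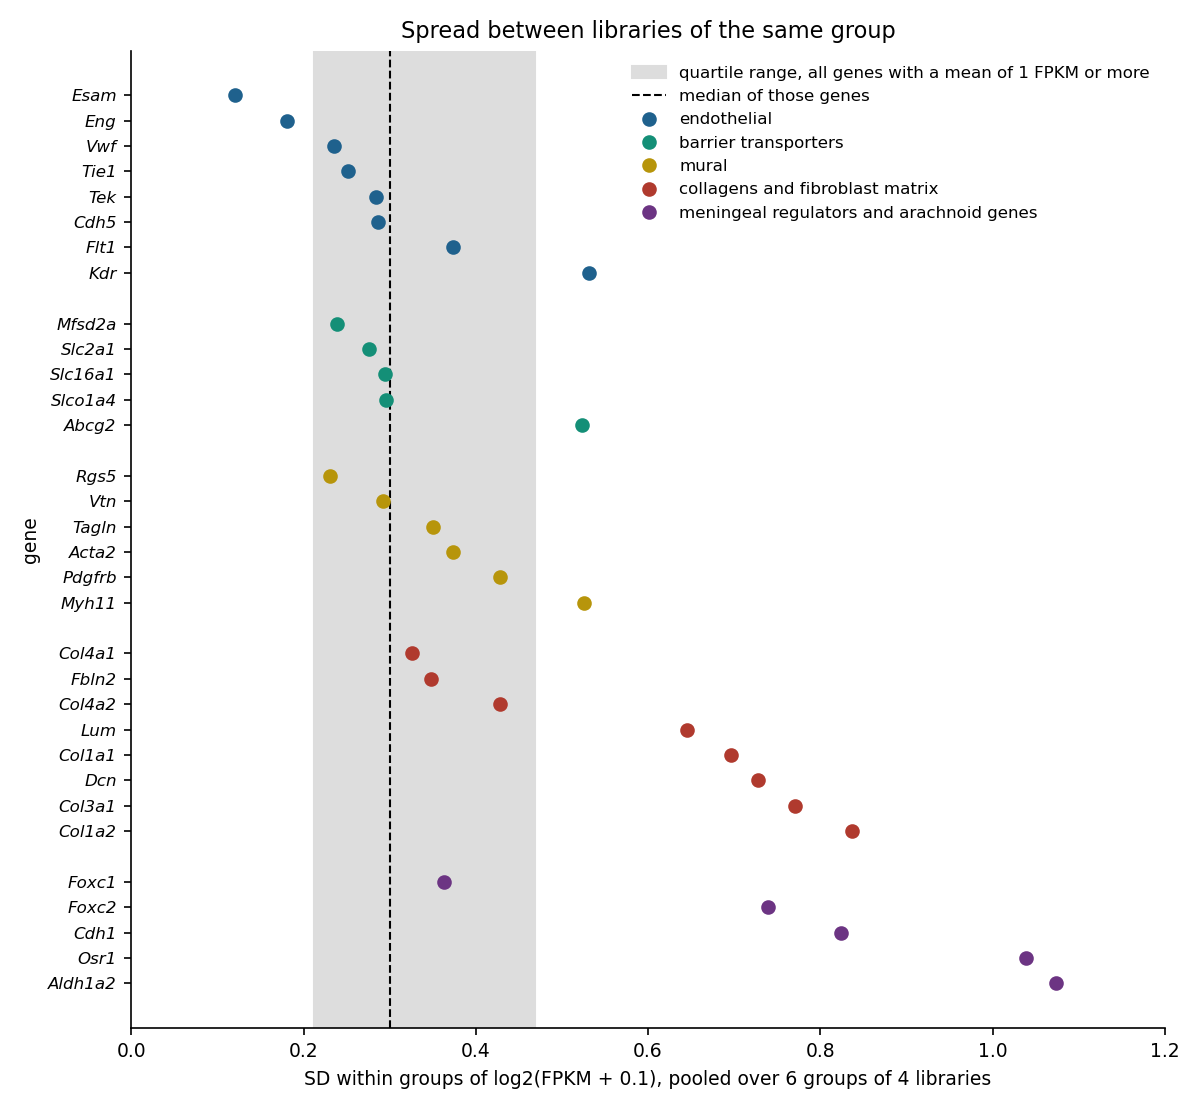
Standard deviation within groups of log2(FPKM + 0.1) for 32 genes, pooled over 6 groups of 4 libraries, with genes on the vertical axis coloured by class. The band and dashed line give the quartiles and median of 13676 genes with a mean of 1 FPKM or more, and 9 matrix and meningeal genes lie to the right of the band together with Kdr, Abcg2 and Myh11.

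A set of 10 fibroblast and meningeal genes was grouped after their values were seen: Col1a1, Col1a2, Col3a1, Dcn, Lum, Aldh1a2, Foxc1, Foxc2, Cdh1 and Osr1. Because the set was picked for varying together, the ranks that follow describe it and support nothing. Fbln2, of the same matrix class, was left out and ran the other way (r = -0.39 and rho = -0.43 with Dcn, permutation p = 0.0589 and 0.0366, adjusted p = 0.112 and 0.0805, centred r = -0.34, r = -0.32 without the 2 libraries farthest from the Dcn median). The mural gene Vtn was also left out, though it varied with Dcn (r = 0.60 and rho = 0.55, permutation p = 0.00243 and 0.00623, adjusted p = 0.00982 and 0.0265, centred r = 0.78, r = 0.50 without those 2 libraries). Osr1, inside the set, gave r = 0.51 and centred r = 0.61 with Dcn. Variation with Dcn was thus not particular to the set. F1 PNO 1 and F1 PNO 3 ranked among the 6 highest libraries for 10 of these 10 genes, F1 SAL 1 for 9, F1 SAL 2 and F2 SAL 4 for 8 each, and F2 SAL 3 for 4. F1 SAL 3 was among the 2 lowest for 5 of them, and F2 SAL 2 for 4. Both saline groups and F1 PNO thus held high and low libraries side by side.

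Col1a1 shows the pattern in single libraries. In F1 SAL it was 28.4, 28.5, 8.46 and 13.6 FPKM, in F1 PNO 35.8, 12.9, 41.9 and 10.97 FPKM, and in F1 IUO 13.4, 11.4, 19.0 and 18.7 FPKM. In F2 SAL it was 12.9, 10.5, 27.5 and 31.5 FPKM, in F2 PNO 10.7, 9.25, 8.28 and 17.2 FPKM, and in F2 IUO 13.2, 14.5, 21.8 and 9.12 FPKM. Libraries of 1 group differed severalfold, most in F1 PNO, and no group stood clear of another. The ratio of Col1a1 to Col4a1 ran from 0.255 in F1 SAL 3 to 1.14 in F1 PNO 1.

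Dcn, the fibroblast marker, was 9.83, 8.64, 2.86 and 3.08 FPKM in F1 SAL, 11.4, 5.19, 11.5 and 2.74 FPKM in F1 PNO, and 4.25, 5.90, 4.87 and 3.62 FPKM in F1 IUO. In F2 SAL it was 3.95, 2.49, 7.12 and 8.35 FPKM, in F2 PNO 5.05, 5.11, 3.18 and 11.3 FPKM, and in F2 IUO 3.83, 3.97, 4.64 and 6.26 FPKM. The high F2 PNO library was F2 PNO 4, which was not high for Col1a1 to the same extent, and both IUO groups stayed in the lower part of the range. Ptgds, a prostaglandin synthase made by the meninges, choroid plexus and oligodendrocytes, was 678 FPKM or more in F1 PNO 1, F1 PNO 3, F1 SAL 1, F1 SAL 2, F2 PNO 1 and F2 SAL 4. Its correlation with Dcn is given below, and a common source of the 2 was not tested.

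Correlations over the 24 libraries were computed for 101 pairs of genes on log2(FPKM + 0.1), with permutation tests of 100000 resamples (two-sided) and adjustment over the 101 pairs. The smallest p these permutations can give is 1e-05. The 24 points share a group structure and a library each, and r is therefore also given after centring each group on its mean. Dcn varied with Lum (r = 0.86, rho = 0.88, permutation p = 1e-05 for both, adjusted p = 0.000168 and 0.000252, centred r = 0.90, r = 0.80 without the 2 libraries farthest from the median of Dcn). With Col1a1 it gave r = 0.74 and rho = 0.63 (permutation p = 6e-05 and 0.00133, adjusted p = 0.000673 and 0.00896, centred r = 0.81, r = 0.64 without 2 libraries). Aldh1a2 gave r = 0.72 and rho = 0.70 with Dcn (permutation p = 4e-05 and 0.00017, adjusted p = 0.000505 and 0.00191, centred r = 0.76, r = 0.63 without 2 libraries). Ptgds gave r = 0.71 and rho = 0.69 with Dcn (permutation p = 8e-05 and 0.0003, adjusted p = 0.000735 and 0.00303, centred r = 0.74, r = 0.63 without 2 libraries). Ttr gave r = 0.425 and rho = 0.34 with Dcn (permutation p = 0.0397 and 0.11, adjusted p = 0.0855 and 0.185, centred r = 0.45, r = 0.32 without 2 libraries).

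Dcn and Cdh5 were less closely related (r = 0.33, permutation p = 0.111, adjusted p = 0.189; rho = 0.48, permutation p = 0.0203, adjusted p = 0.0507), with a centred r of 0.40 and r = 0.16 without the 2 libraries farthest from the Dcn median. Cdh5 was related to the other endothelial genes unequally. With Kdr it gave r = 0.79 and rho = 0.68 (permutation p = 1e-05 and 0.00049, adjusted p = 0.000168 and 0.00412, centred r = 0.77, r = 0.65 without 2 libraries), and with Esam r = -0.03 and rho = -0.20 (permutation p = 0.893 and 0.353, adjusted p = 0.939 and 0.469, centred r = 0.07, r = -0.03 without 2 libraries). Cdh5 and Col1a1 gave r = 0.59 and rho = 0.77 (permutation p = 0.00122 and 6e-05, adjusted p = 0.00685 and 0.00118, centred r = 0.49), and r was 0.80 without the 2 libraries farthest from the Cdh5 median. Col4a1 and Col4a2 gave r = 0.97 and rho = 0.89 (permutation p = 1e-05 for both, adjusted p = 0.000168 and 0.000252, centred r = 0.95, r = 0.91 without 2 libraries). Col1a1 and Col1a2, the chains of type I collagen, gave r = 0.96 and rho = 0.95 (permutation p = 1e-05 for both, adjusted p = 0.000168 and 0.000252, centred r = 0.96, r = 0.95 without 2 libraries). Col1a1 and Col4a1 gave r = 0.42 and rho = 0.49 (permutation p = 0.0419 and 0.0177, adjusted p = 0.0864 and 0.0471, centred r = 0.36, r = 0.44 without 2 libraries). The chains within each collagen type were thus more alike over the libraries than Col1a1 and Col4a1 were.

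**Figure D3:**
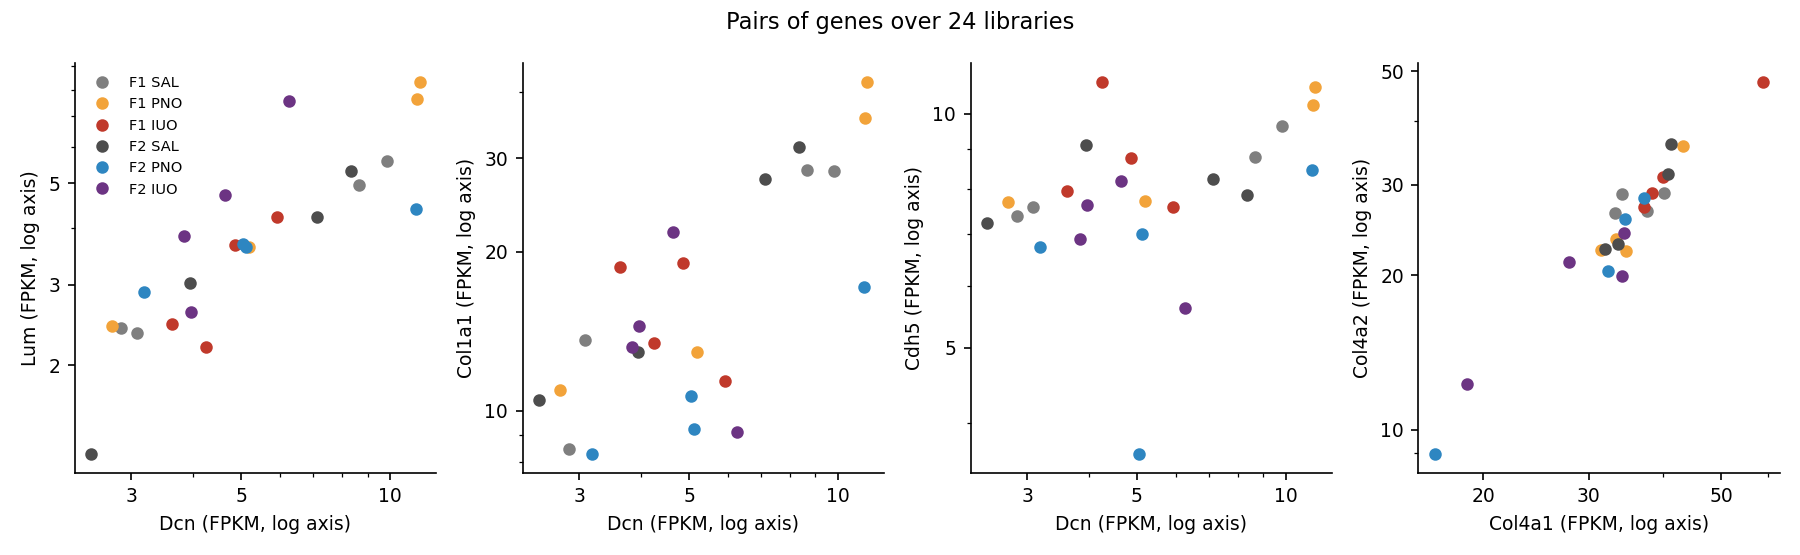
FPKM of pairs of genes in 24 libraries on log axes, coloured by group. From left to right, Lum against Dcn (r = 0.86), Col1a1 against Dcn (r = 0.74), Cdh5 against Dcn (r = 0.33) and Col4a2 against Col4a1 (r = 0.97).

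Among 13676 genes with a mean of 1 FPKM or more, those most like Dcn over the 24 libraries were Lum (r = 0.86), NEWGENE_1308171 (r = 0.83), which the files annotate as a predicted mimecan, Serping1 (r = 0.81), the complement C1 inhibitor, Col3a1 (r = 0.80) and Col1a2 (r = 0.77). All but Serping1 are matrix genes. Those most like Pdgfrb were Cep192, Aldh6a1, Ppp2ca, Ganab and Trim68 (r = 0.75 to 0.78), and those most like Cdh5 were Fam13a, Pcdhgb4, Itgav, Hs6st3 and Plekhm3 (r = 0.87 to 0.91). No member was among the latter 2 sets. Pdgfrb itself gave r = 0.56 with Rgs5 and r = 0.12 with Acta2 (rho = 0.47 and 0.20, permutation p = 0.00469 and 0.587 for r and 0.0216 and 0.352 for rho, adjusted p = 0.0153 and 0.697 for r and 0.0507 and 0.469 for rho, centred r = 0.27 and -0.17, r = 0.43 and 0.17 without 2 libraries). Its highest centred r with a mural gene was 0.39, with Myh11 (uncentred r = 0.59). Centred r was higher with Cdh1 (0.75), Col3a1 (0.67), Col1a2 (0.64), Dcn (0.63) and Col1a1 (0.61). Uncentred, these genes gave r from 0.23 to 0.53. Without the 2 libraries farthest from the Pdgfrb median, uncentred r was 0.56 with Myh11, the highest of the mural genes. It was then 0.455 with Col3a1, 0.44 with Col1a2, 0.42 with Col1a1 and -0.03 with Cdh1. Dcn gave 0.46 without the 2 libraries farthest from its own median. F2 PNO 4 stood apart as the highest of its group for Pdgfrb, Cdh1, Col3a1 and Col1a2, and its part was not tested. Whether Pdgfrb varied more closely with fibroblast or with mural genes thus depended on the measure.

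Differences between groups were tested with limma on log2(FPKM + 0.1), a scale that understates the change of low genes, over all genes with at least 0.1 FPKM in 4 or more of 8 libraries. To pass the rule, a gene needed an unadjusted p under 0.05 together with a ratio of mean FPKM of 1.5 or more, and 32 of the 33 genes were tested in each comparison. Over the 9 comparisons of 2 groups, 34 of 288 tests of these genes had an unadjusted limma p under 0.05, against 9.87% of all 155517 tests. After adjustment over all genes 1 of 288 remained, against 0.0225% of all tests. Comparisons that share a group are not independent of each other.

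In F1 IUO against F1 SAL, 2 genes passed the rule, Fbln2 upward and Cdh1 downward, out of 32, against 2.45% of 17380 genes. Eng and Vtn, 2 of the 32, had groups that did not overlap, against 2.54% of all genes. The median log2 difference was -0.08 over the 32 genes and 0.01 over all genes. Fbln2 was 16.8, 13.7, 13.2 and 13.6 FPKM in F1 IUO and 6.75, 7.70, 13.4 and 9.05 FPKM in F1 SAL, so that 1 saline library reached the IUO range. The log2 difference was 0.67 ± 0.20 (SE, limma unadjusted p = 0.00864, adjusted p = 0.999). Cdh1 was 0.03, 0.02, 0.21 and 0.08 FPKM in F1 IUO and 0.48, 0.60, 0.18 and 0.14 FPKM in F1 SAL, overlapping groups at very low levels, with a log2 difference of -1.24 ± 0.53 (SE, limma unadjusted p = 0.0428, adjusted p = 0.999). F1 IUO averaged 0.085 FPKM, under the filter of 0.1 FPKM, so Cdh1 entered this test largely through F1 SAL. Its values here are a description only. Vtn was lower in F1 IUO, at 16.02 ± 0.865 against 21.5 ± 3.90 FPKM (mean ± SD, n = 4), a log2 difference of -0.40 ± 0.14 (SE, limma unadjusted p = 0.0154, adjusted p = 0.999) that did not reach 1.5-fold.

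Fbln2 left the rule without F1 IUO 1, F1 SAL 1 or F1 SAL 2, because the ratio then fell under 1.5 (log2 difference 0.59, 0.54 and 0.60), and its limma unadjusted p was at most 0.0267 with any library left out. Cdh1 left it without any of F1 IUO 1, 2 and 4 and F1 SAL 1 and 2 (limma unadjusted p up to 0.13), with log2 differences from -1.53 to -0.98. Of the 5 genes of the erythroid list, Hbb and Hba-a2 were higher in F1 IUO. The summed list ranged from 29.0 to 412 FPKM against 13.3 to 90.7 FPKM in F1 SAL. Of 6 hypothalamus genes tested 4 were higher (43.8 to 158 against 10.5 to 57.3 FPKM summed over the list). Their part in the differences above was not tested.

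In F1 PNO against F1 SAL, 1 of 32 genes passed the rule, Foxc1 upward, against 4.48% of 17494 genes. Eng was the 1 gene whose groups did not overlap, against 8.27% of all genes. The median difference was -0.03 over the 32 genes and -0.05 over all genes. Foxc1 was 3.42, 2.39, 3.32 and 1.72 FPKM in F1 PNO and 2.56, 1.66, 1.32 and 1.25 FPKM in F1 SAL. These groups overlapped, and the log2 difference was 0.65 ± 0.29 (SE, limma unadjusted p = 0.0492, adjusted p = 0.356). All 5 meningeal genes had a positive difference here, with a median of 0.65, but the other 4 did not pass the rule. Foxc1 left the rule without any of 6 of the 8 libraries (F1 PNO 1, 2 and 3 and F1 SAL 2, 3 and 4, limma unadjusted p up to 0.131). The 6 thalamus genes summed to between 115 and 298 FPKM in F1 PNO and between 17.9 and 147.98 FPKM in F1 SAL, and 5 of them passed the rule upward. Of the hypothalamus genes 3 of 6 tested passed downward (3.99 to 12.7 against 10.5 to 57.3 FPKM summed), and of 6 microglia genes Cx3cr1 did. Their part in the Foxc1 difference was not tested.

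In F1 IUO against F1 PNO, 3 of 32 genes passed the rule, Fbln2 upward and Cdh1 and Osr1 downward, against 7.08% of 17306 genes, and 2 had groups that did not overlap, against 10.5% of all genes. The median difference was -0.02 over the 32 genes and 0.03 over all genes. Fbln2 was 7.28, 4.90, 7.55 and 7.07 FPKM in F1 PNO against the F1 IUO values of 13.2 to 16.8 FPKM. Every F1 IUO library exceeded every F1 PNO library, and the group means differed 2.14-fold. The log2 difference was 1.10 ± 0.16 (SE, limma unadjusted p = 6.23e-05, adjusted p = 0.0477), the 1 test of these genes past adjustment over all genes. Fbln2 kept to the rule in all 16 alternatives, with log2 differences from 0.96 to 1.25, but its adjusted p ran from 0.0463 to 0.167 and stayed under 0.05 in only 2 of them, with a filter at 1 FPKM and with upper-quartile rescaling. F1 SAL lay between the F1 PNO and F1 IUO means.

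Cdh1 was 0.89, 0.38, 1.22 and 0.51 FPKM in F1 PNO, above all 4 F1 IUO values, and the log2 difference was -2.19 ± 0.48 (SE, limma unadjusted p = 0.00117, adjusted p = 0.108). With F1 IUO averaging 0.085 FPKM, under the filter of 0.1 FPKM, Cdh1 entered this test largely through F1 PNO. These values are a description only. Osr1 was 0.60, 0.40, 0.63 and 0.22 FPKM in F1 IUO and 2.80, 0.99, 2.23 and 0.51 FPKM in F1 PNO. These groups overlapped in 1 F1 PNO library, and the log2 difference was -1.45 ± 0.52 (SE, limma unadjusted p = 0.0202, adjusted p = 0.22). Osr1 left the rule without F1 IUO 4, F1 PNO 1 or F1 PNO 3 (log2 difference -1.20, -1.11 and -1.22). Leaving out F1 PNO 4 raised the number of genes past the rule from 3 to 8. Hypothalamus genes summed to between 43.8 and 158 FPKM in F1 IUO and between 3.99 and 12.7 FPKM in F1 PNO. Of the 6 tested, 5 were past the rule upward. Thalamus genes summed to between 26.7 and 138 FPKM against 115 to 298 FPKM, with 4 of 6 past it downward. Striatal projection neuron genes summed to between 818 and 1147 FPKM against 526 to 727 FPKM, with 4 of 8 past it upward. The part of these lists was not tested.

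**Figure D4:**
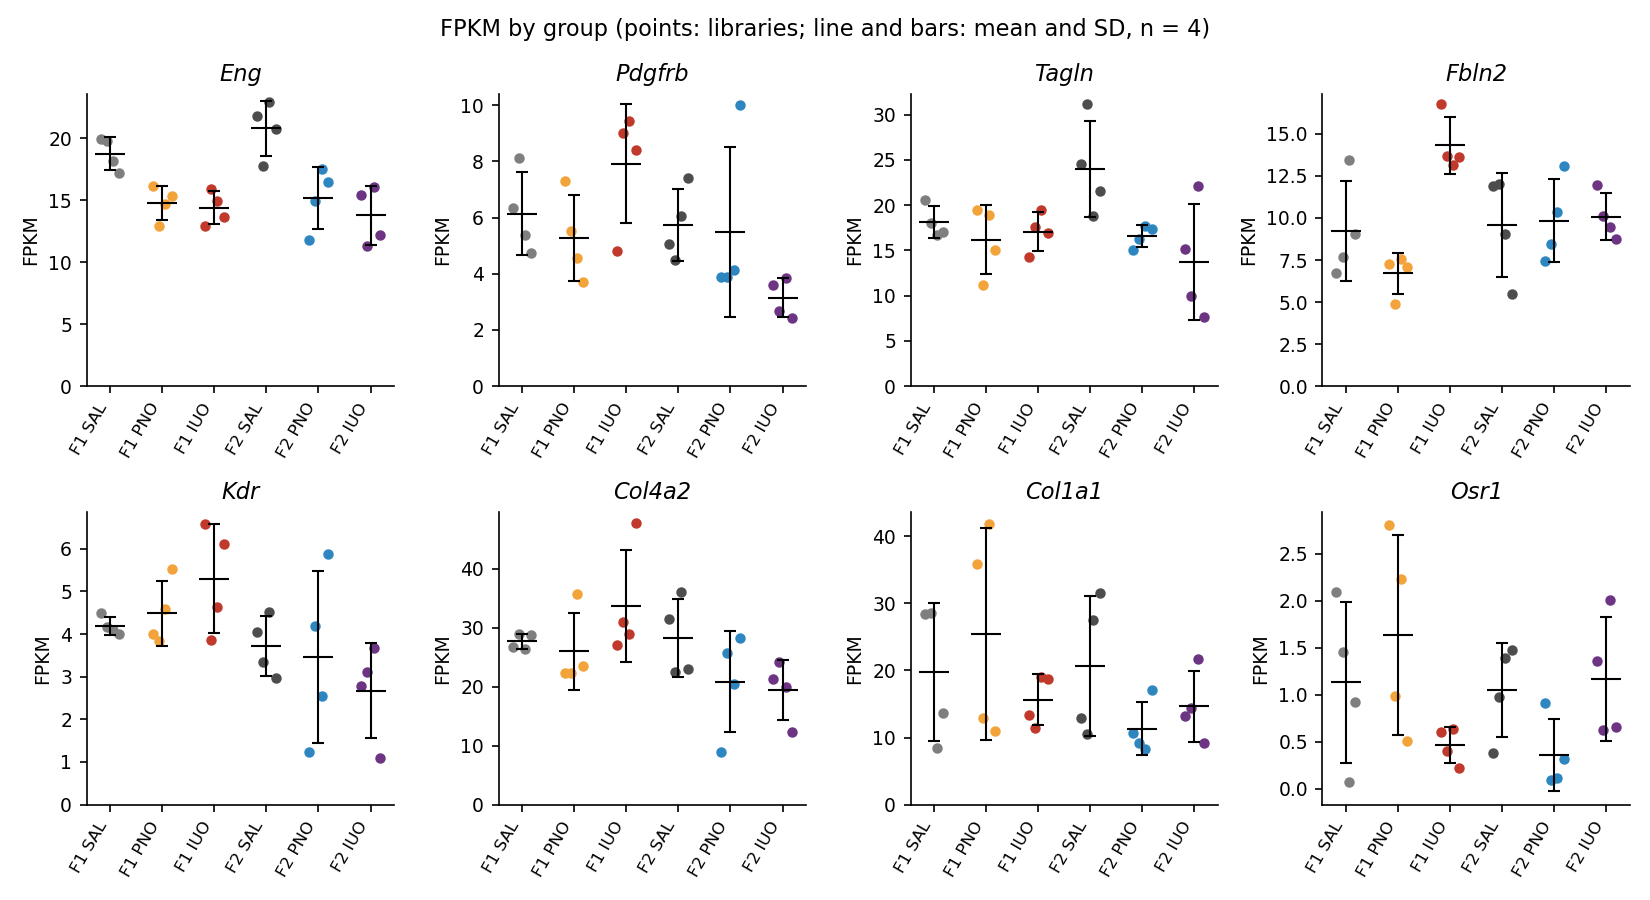
FPKM of 8 genes in the 6 groups (points, single libraries; line and bars, mean and SD, n = 4), on axes that begin at or below 0. Both saline groups lie above the exposed groups of their generation for Eng, F1 IUO lies above F1 PNO for Fbln2, and F2 IUO is lowest for Pdgfrb, at 2.44 to 3.86 FPKM.

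In F2 IUO against F2 SAL, 3 of 32 genes passed the rule, all downward, against 4.19% of 17097 genes. They were Eng, Pdgfrb and Tagln. Eng, Pdgfrb and Flt1 had groups that did not overlap, against 5.11% of all genes. The difference was negative for 29 of the 32 genes, with a median of -0.25, beside a median of -0.08 over all genes. All 8 endothelial, 5 transporter and 6 mural genes tested had a negative difference, and most did not pass the rule. The same sign held for all 8 striatal projection neuron, 5 astrocyte and 5 oligodendrocyte genes tested (medians -0.51, -0.11 and -0.14). It was thus not particular to the vascular classes. Choroid plexus (7 of 8), erythroid (4 of 4), thalamus (5 of 6) and hypothalamus genes (5 of 6) were mainly positive. Pdgfrb was 3.59, 2.69, 3.86 and 2.44 FPKM in F2 IUO and 5.05, 4.48, 6.04 and 7.42 FPKM in F2 SAL, which leaves a gap between the groups. The log2 difference was -0.85 ± 0.23 (SE, limma unadjusted p = 0.00428, adjusted p = 0.436), and it kept to the rule with each library left out in turn (-0.96 to -0.72).

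Tagln was 15.2, 9.98, 22.1 and 7.69 FPKM in F2 IUO and 24.6, 31.2, 18.8 and 21.6 FPKM in F2 SAL. The groups overlapped because F2 IUO 3 exceeded 2 of the saline libraries, and the log2 difference was -0.89 ± 0.30 (SE, limma unadjusted p = 0.0157, adjusted p = 0.543). Flt1 averaged 2.62 ± 0.806 FPKM in F2 IUO and 3.42 ± 0.172 FPKM in F2 SAL (mean ± SD, n = 4), with a log2 difference of -0.43 ± 0.26 (SE, limma unadjusted p = 0.128, adjusted p = 0.648). F2 IUO 4, which together with F2 PNO 1 was low for most endothelial genes, had 1.51 FPKM of Flt1, 1.09 FPKM of Kdr and 12.3 FPKM of Col4a2. Those 2 libraries also had the highest summed FPKM of the 24 (709207 and 766781). F2 IUO 4 also had the most genes listed at 0 (7532), and F2 PNO 1 the highest sum of 5 oligodendrocyte genes (3479 FPKM). The part of these values in their endothelial levels was not tested. Of the 6 microglia and macrophage genes 3 were past the rule downward in F2 IUO (58.3 to 73.8 against 74.3 to 92.0 FPKM summed), of 8 striatal projection neuron genes 2 were downward (400 to 987 against 757 to 1006 FPKM), and 2 of the erythroid entries were upward (32.5 to 121 against 13.7 to 36.9 FPKM). Their part was not tested.

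In F2 PNO against F2 SAL, 1 of 32 genes passed the rule, Osr1 downward, against 4.54% of 17367 genes, and Eng and Tagln had groups that did not overlap, against 7.01% of all genes. The difference was negative for 24 of 32 genes, with a median of -0.27, beside -0.08 over all genes. Osr1 was 0.91, 0.09, 0.11 and 0.31 FPKM in F2 PNO and 0.38, 0.97, 1.39 and 1.47 FPKM in F2 SAL. The groups overlapped in F2 PNO 1, and the log2 difference was -1.55 ± 0.61 (SE, limma unadjusted p = 0.0313, adjusted p = 0.433). Osr1 left the rule without any of F2 PNO 2 and 3 and F2 SAL 2, 3 and 4 (limma unadjusted p up to 0.0872). Tagln was 16.6 ± 1.21 FPKM in F2 PNO and 24.04 ± 5.30 FPKM in F2 SAL (mean ± SD, n = 4), a log2 difference of -0.51 ± 0.16 (SE, limma unadjusted p = 0.0111, adjusted p = 0.374) under the 1.5-fold limit. The saline samples are the same as in the F2 IUO comparison. Of the erythroid entries 2 were past the rule upward (31.1 to 197 against 13.7 to 36.9 FPKM summed), as was the hypothalamus gene Pmch (8.90 to 103 against 7.37 to 262 FPKM summed over its list), and their part was not tested.

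In F2 IUO against F2 PNO, 1 of 32 genes passed the rule, Osr1 upward, against 3.38% of 17090 genes. Pdgfrb was the 1 gene without overlap, against 4.74% of all genes. The medians were -0.02 over the 32 genes and -0.01 over all genes. Osr1 was 1.36, 0.62, 2.01 and 0.66 FPKM in F2 IUO, overlapping F2 PNO only in F2 PNO 1, and the log2 difference was 1.67 ± 0.62 (SE, limma unadjusted p = 0.0242, adjusted p = 0.64). The sign was opposite to that of Osr1 in F1 IUO against F1 PNO. It left the rule without F2 IUO 1 or 3 or F2 PNO 2 or 3 (limma unadjusted p up to 0.0723). Pdgfrb was 3.89, 3.90, 4.14 and 10.0 FPKM in F2 PNO, with 3 libraries just above the F2 IUO range and F2 PNO 4 far above it, and the log2 difference was -0.68 ± 0.34 (SE, limma unadjusted p = 0.0754, adjusted p = 0.746). Of 6 hypothalamus genes tested Agrp passed the rule upward without overlap (18.95 to 253 against 8.90 to 103 FPKM summed over the list), and all 8 striatal projection neuron genes had a negative difference with 0 past the rule (400 to 987 against 735 to 1061 FPKM summed). Their part was not tested.

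Eng was singled out after its values were seen, because it was lower than saline without overlap in each of the 4 comparisons with saline. It was the 1 gene of 16603 tested in all 4 to do so (0.00602%), and 0 genes (0%) were higher in each. Because Eng was picked by this pattern, that share and the p-values of Eng below describe it and support nothing. It was 19.9, 19.8, 18.1 and 17.2 FPKM in F1 SAL, 16.2, 12.9, 14.7 and 15.3 FPKM in F1 PNO, and 12.9, 15.9, 15.0 and 13.7 FPKM in F1 IUO. In F2 it was 21.8, 17.7, 22.9 and 20.7 FPKM in SAL, 11.8, 14.9, 17.5 and 16.4 FPKM in PNO, and 15.4, 11.3, 16.1 and 12.2 FPKM in IUO. The lowest saline library of each generation thus lay above every exposed library of that generation, although F2 SAL 2 and F2 PNO 3 nearly met.

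The log2 difference of Eng from saline was -0.38 ± 0.11 in F1 IUO and -0.34 ± 0.10 in F1 PNO (SE, limma unadjusted p = 0.00599 and 0.00752, adjusted p = 0.999 and 0.242). In F2 it was -0.60 ± 0.15 in IUO and -0.46 ± 0.15 in PNO (SE, limma unadjusted p = 0.00251 and 0.0138, adjusted p = 0.413 and 0.386). The difference reached 1.5-fold, and so the rule, only in F2 IUO, where it left the rule without F2 IUO 2, F2 IUO 4, F2 SAL 1 or F2 SAL 3 (log2 difference -0.51, -0.55, -0.58 and -0.55, limma unadjusted p up to 0.0092). The exposed groups of a generation share their saline libraries, so the 4 values rest on 2 sets of controls. Of the 8 endothelial genes, 6 had a positive difference in F1 IUO and 3 in F1 PNO, against 0 in F2 IUO and 1 in F2 PNO. Esam had a negative difference in all 4 comparisons (-0.24 and -0.10 in F1 IUO and PNO, -0.26 and -0.09 in F2 IUO and PNO), with limma unadjusted p from 0.057 to 0.456 and groups that overlapped.

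**Figure D5:**
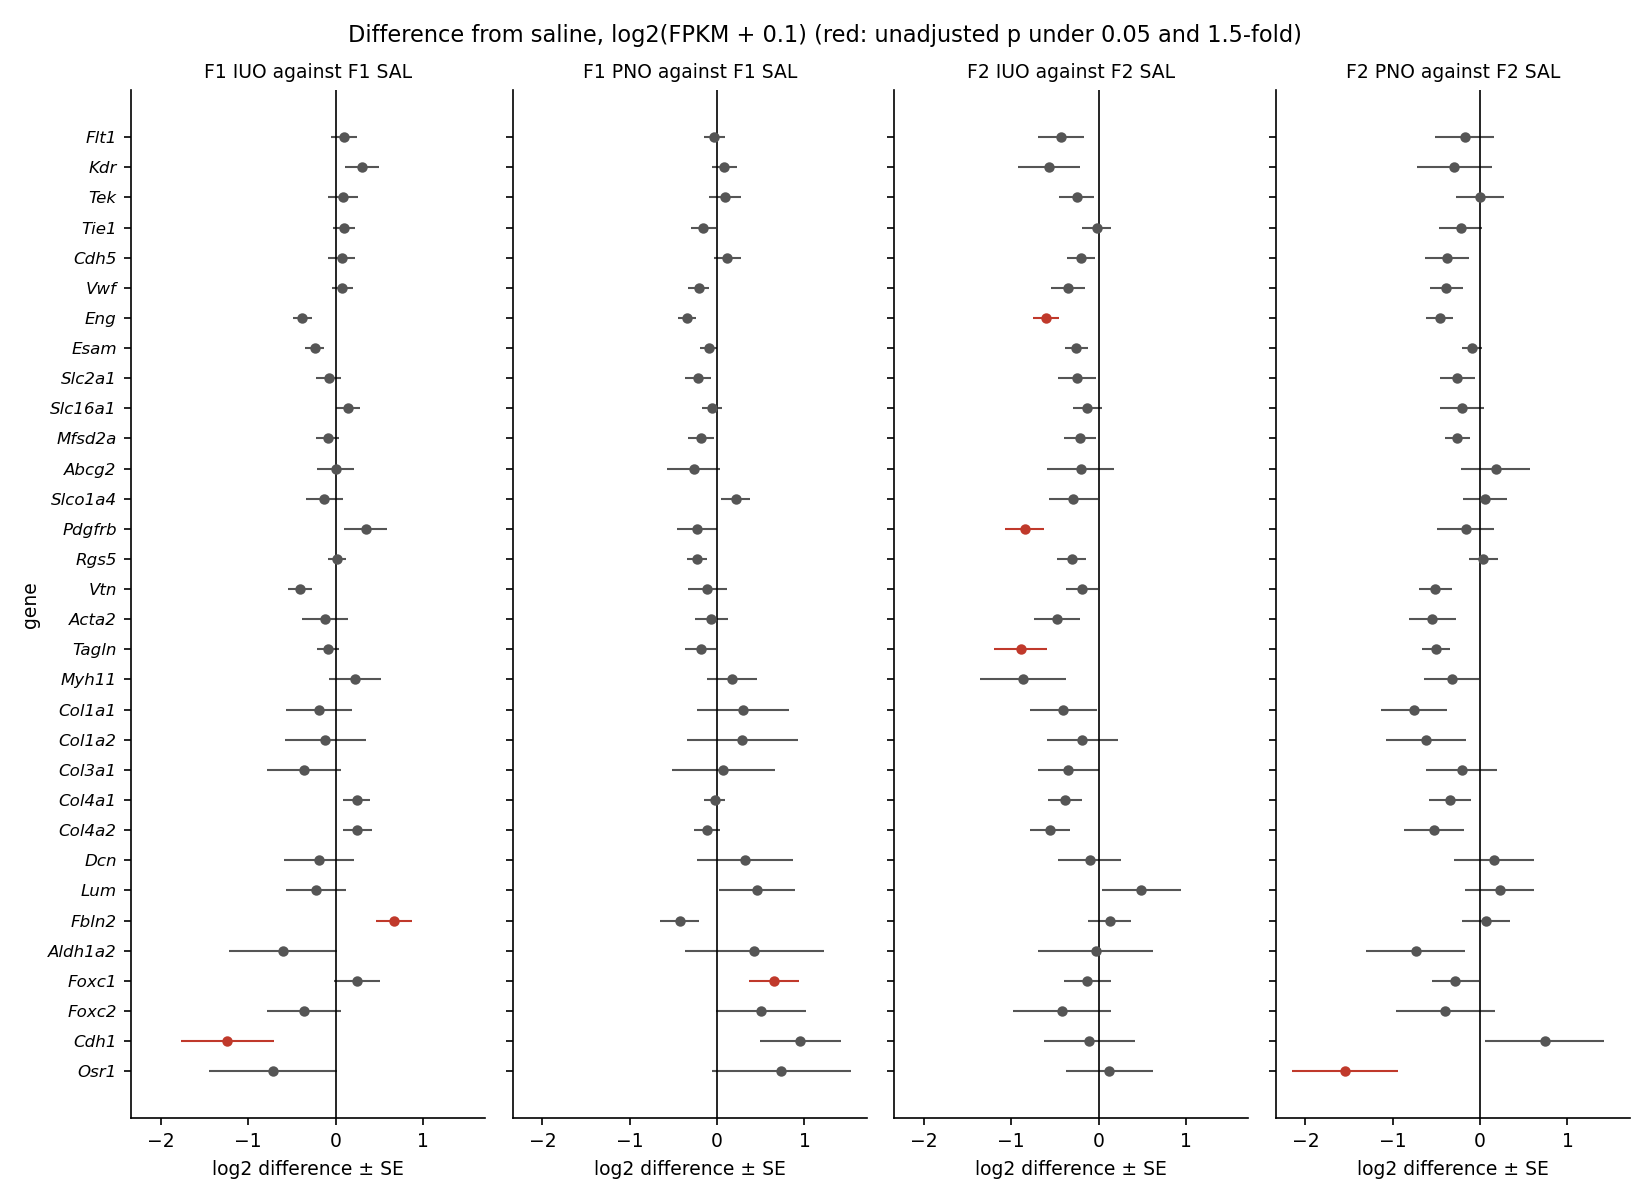
Difference from saline in log2(FPKM + 0.1), with its standard error from limma, for 32 genes in 4 comparisons with n = 4 per group. Red points passed the rule (unadjusted p under 0.05 and 1.5-fold). Eng is negative in all 4 comparisons (-0.34 to -0.60), and in F2 IUO 29 of the 32 points lie below 0.

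The generations were compared within each exposure. In F2 SAL against F1 SAL, 0 of 32 genes passed the rule, against 2.72% of 17497 genes, and 0 had groups without overlap, against 4.98%. With limma at an unadjusted p under 0.05 and no limit on fold, 1 of 32 genes differed, Tagln, against 8.48% of all genes, at 24.04 ± 5.30 FPKM in F2 SAL and 18.1 ± 1.75 FPKM in F1 SAL (mean ± SD, n = 4, unadjusted p = 0.0314, adjusted p = 0.585). The median difference was 0.00 over the 32 genes and -0.02 over all genes.

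In F2 IUO against F1 IUO, 6 of 32 genes passed the rule, 5 downward and Osr1 upward, against 8.51% of 16916 genes. The groups did not overlap for 8 genes, Flt1, Kdr, Tek, Vwf, Pdgfrb, Col4a1, Col4a2 and Fbln2, all lower in F2, against 10.7% of all genes. The median difference was -0.21 over the 32 genes and -0.09 over all genes. Pdgfrb was 4.80, 9.02, 9.44 and 8.41 FPKM in F1 IUO against at most 3.86 FPKM in F2 IUO. The log2 difference was -1.28 ± 0.26 (SE, limma unadjusted p = 0.000686, adjusted p = 0.221), and it kept to the rule with each library left out. Kdr was 6.59, 3.86, 4.64 and 6.12 FPKM in F1 IUO and 2.79, 3.11, 3.68 and 1.09 FPKM in F2 IUO, with a log2 difference of -1.06 ± 0.37 (SE, limma unadjusted p = 0.0167, adjusted p = 0.251). Without F2 IUO 4, its lowest library, Kdr was still past the rule (-0.69).

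Both type IV collagen genes were lower in F2 IUO. Col4a1 was 37.2, 40.0, 38.3 and 58.8 FPKM in F1 IUO and 27.8, 34.3, 34.1 and 18.8 FPKM in F2 IUO (log2 difference -0.61 ± 0.22, SE, limma unadjusted p = 0.0193, adjusted p = 0.258). Col4a2 was 27.2, 31.0, 28.9 and 47.7 FPKM in F1 IUO and 21.2, 24.2, 19.9 and 12.3 FPKM in F2 IUO (log2 difference -0.80 ± 0.24, SE, limma unadjusted p = 0.00758, adjusted p = 0.236). The extremes were F1 IUO 4 and F2 IUO 4, and both genes left the rule without F1 IUO 4 (-0.46 and -0.62); Col4a1 also left it without F2 IUO 1 or F2 IUO 4 (-0.61 and -0.42). Flt1 (-0.69 ± 0.27, SE, limma unadjusted p = 0.031, adjusted p = 0.289) left it without any of 5 libraries, F1 IUO 1, 2 and 4 and F2 IUO 1 and 4. Osr1 (1.09 ± 0.48, SE, limma unadjusted p = 0.0454, adjusted p = 0.322) left it without F2 IUO 1 or 3 or F1 IUO 2 or 4. Without F1 IUO 4, 2 genes passed the rule, and without the 6 libraries with the most Ttr 2 also did. Of 8 striatal projection neuron genes 4 were also past the rule downward in F2 IUO (400 to 987 against 818 to 1147 FPKM summed), as were the microglia gene P2ry12 and the thalamus gene Rora, and their part was not tested.

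In F2 PNO against F1 PNO, 2 of 32 genes passed the rule, Osr1 and Foxc1 downward, against 3.24% of 17370 genes, and 0 had groups without overlap, against 3.34%. The median difference was -0.30 over the 32 genes and -0.06 over all genes, and all 5 meningeal genes had a negative difference. Osr1 gave a log2 difference of -2.02 ± 0.66 (SE, limma unadjusted p = 0.0131, adjusted p = 0.943) and kept to the rule with each library left out. Foxc1 was 1.62, 1.59, 0.98 and 1.88 FPKM in F2 PNO, overlapping the F1 PNO values only in F1 PNO 4, with a log2 difference of -0.78 ± 0.30 (SE, limma unadjusted p = 0.0281, adjusted p = 0.948). It left the rule without F2 PNO 3, F1 PNO 1 or F1 PNO 3 (-0.60, -0.66 and -0.67). The number of genes past the rule was 6 without F2 PNO 4, 7 without F1 PNO 4 and 4 without F2 PNO 1, and it was 0 without the 6 libraries with the most Ttr. Of 6 thalamus genes 2 were past the rule downward (31.4 to 199.75 against 115 to 298 FPKM summed), and of the hypothalamus genes Pmch was upward, and their part was not tested.

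Whether an exposure effect differed between the generations was tested as an interaction over 16 libraries. After adjustment over all genes 0 of 96 tests of these genes passed, against 0% of 51402 tests, with 10 of 96 at an unadjusted limma p under 0.05. For IUO against SAL these were 4 of 32 genes (Pdgfrb, Col4a2, Col4a1 and Tagln), against 5.17% of 17102 genes. For PNO against SAL it was Foxc1 alone, against 3.90% of 17268 genes. For IUO against PNO they were 5 of 32 (Fbln2, Osr1, Pdgfrb, Rgs5 and Vtn), against 5.87% of 17032 genes. For Pdgfrb the log2 difference of IUO from SAL was lower in F2 than in F1 by -1.19 ± 0.34 (SE, limma unadjusted p = 0.00319, adjusted p = 0.915). Its IUO mean lay above SAL in F1 (7.92 against 6.14 FPKM), without passing the rule, and below SAL in F2 (3.145 against 5.75 FPKM). The IUO against PNO difference was lower in F2 by -1.04 ± 0.26 for Fbln2 (SE, limma unadjusted p = 0.00119, adjusted p = 0.597) and higher by 3.11 ± 0.84 for Osr1 (SE, limma unadjusted p = 0.00204, adjusted p = 0.713).

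Other genes of the same cells were read from lists set beside the members: 20 further endothelial, 12 further mural, 20 further fibroblast and meningeal and 21 vascular signalling genes. In F2 IUO against F2 SAL, 1 of 20 further endothelial genes (Sox7), 2 of 12 further mural genes (Lmod1 and Cspg4) and 0 of 17 fibroblast and 21 signalling genes tested passed the rule, all downward, against the 4.19% of all genes given above. The difference was negative for all 12 further mural genes, with a median of -0.41, as it was for the striatal, astrocyte and oligodendrocyte genes given above. The other lists were mixed. Negative differences were found for 14 of 20 further endothelial, 12 of 17 fibroblast and meningeal and 17 of 21 signalling genes tested (medians -0.26, -0.28 and -0.28). Cspg4, a proteoglycan of pericytes and also of oligodendrocyte precursors, averaged 5.69 FPKM in F2 IUO and 8.56 FPKM in F2 SAL (log2 difference -0.59 ± 0.18, SE, limma unadjusted p = 0.00854, adjusted p = 0.495).

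In F1 IUO against F1 PNO, Notch3 and Cspg4 passed the rule upward and Anpep downward among 12 further mural genes, against the 7.08% of all genes given above. Notch3, the Notch receptor of mural cells, averaged 13.8 against 8.38 FPKM (log2 difference 0.71 ± 0.13, SE, limma unadjusted p = 0.000327, adjusted p = 0.0848) with groups that did not overlap. Of 21 signalling genes, Tgfbr2 and Notch1 passed upward (0.59 and 0.57), and of 18 fibroblast and meningeal genes tested Slc22a6 and Tbx18 passed downward (-1.45 and -0.97). In F2 IUO against F1 IUO, Notch3 (-0.67), Cspg4 (-0.65), Notch1 (-0.62), Tgfbr2 (-0.97) and the endothelial phosphatase gene Ptprb (-1.29) passed downward, and Islr (0.81) and Slc22a6 (0.78) upward, against the 8.51% of all genes given above.

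In F1 IUO against F1 SAL, Tgfbr2 (0.67) passed upward, and none of the 20 further endothelial or 11 further mural genes tested passed, against the 2.45% given above. In F1 PNO against F1 SAL, Ly6e (-0.84) and Cspg4 (-0.56) passed downward, against the 4.48% given above. The fibroblast gene Dpt passed upward in both, at 0.538 FPKM in F1 IUO, 0.325 FPKM in F1 PNO and 0.04 FPKM in F1 SAL, and since F1 SAL averaged under the filter of 0.1 FPKM it entered the test largely through the exposed groups and no fold is given. In F2 PNO against F2 SAL the meningeal transporter genes Slc6a13 and Slc22a6 (-1.51 and -1.32), the endothelial transcription factor gene Sox18 (-0.67) and the growth factor gene Pgf (-0.69) passed downward, against the 4.54% given above. In F2 IUO against F2 PNO, Emcn (-0.73) passed downward and Islr (0.91) upward, against 3.38%. In the generation comparisons of the other exposures, Higd1b, a pericyte gene, passed upward in SAL and PNO (0.70 and 0.58), and Slc6a13 and Slc22a6 passed downward in PNO (-1.53 and -1.42), against 2.72% and 3.24% of all genes. The values in brackets are log2 differences, and none of these genes had an adjusted limma p under 0.05.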

How the data were processed

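Total RNA from the NAc of 24 P14 pups was sequenced. The authors deposited 1 table of FPKM values per library, made with StringTie, with HISAT2, SAMtools and edgeR also named in the submitters' processing notes. Per the methods, transcriptomes of all samples were merged first. Tool versions, genome build and annotation are not given in the sources used here. FPKM are not counts, so no count test was run.

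Values of 23950 genes were joined by gene ID, and groups came from the labels. Differences were fitted with limma 3.58.1 (R 4.3.3; lmFit and eBayes with trend) on log2(FPKM + 0.1), with only the 8 libraries compared, for genes with at least 0.1 FPKM in 4 or more of them. Interactions used 16 libraries and a filter of 8. P-values are two-sided and adjusted by the Benjamini-Hochberg method over all genes tested. The rule of an unadjusted p under 0.05 with 1.5-fold between mean FPKM follows the study's methods. All members are named, with full statistics for those past the rule. From each other list, at most 3 genes per comparison past the rule with the largest changes are named. Likeness was computed for Cdh5 in place of Cldn5. Genes named below the rule were chosen after their values were seen. The members and lists were chosen with earlier results of these data known.

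Correlations and figures used Python 3.11.15 with scipy 1.17.1 and matplotlib 3.10.9. The limma step was tested on simulated data. Alternatives were pseudocount 1, other filters, upper-quartile rescaling, all 24 libraries in 1 fit, a replicate block, a choroid plexus covariate and each library left out. Depth is unknown, since FPKM hold no counts, and 4 libraries per group limit the precision.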

Additional observations from a re-analysis of the deposited data

Results flagged for a closer look

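Within each group of 4, a library was set apart when its distance from the nearest other library took up nearly the whole range of the group (Dixon's ratio above its usual critical value for 4 values). Of 194 such groups of 4 libraries, 13 were set apart. A rate of 1 in 20 would give about 9.7, but that rate holds for independent, normally distributed values. Several of these genes vary together and the ratio was taken on FPKM, so the 13 cannot be judged against it. The ratio was 1 for Cldn5 in F1 PNO 1 and F2 SAL 3, the 2 libraries where it was not listed at 0. With every other library of the group at 0, no other ratio was possible there. F2 PNO 4 was high for Pdgfrb (0.959), Col3a1 (0.925), Col1a2 (0.923) and Cdh1 (0.854), and it was also among the 6 libraries with the most Ttr. F2 PNO 1 was low for Slc16a1 (0.875) and high for Foxc2 (0.93). F1 IUO 4 was high for Vwf (0.886) and Col4a1 (0.872), F1 PNO 3 was high for Col4a2 (0.909), F1 PNO 2 was low for Tek (0.922), and F1 IUO 1 was high for Fbln2 (0.861).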

How the results depend on the processing

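The number of the 32 genes past the rule depended on the settings. With 1 library left out, F1 IUO against F1 SAL gave 0 to 4 (2 with all libraries), F1 PNO against F1 SAL 0 to 2 (1), F1 IUO against F1 PNO 2 to 8 (3), F2 IUO against F2 SAL 2 to 5 (3), F2 PNO against F2 SAL 0 to 4 (1), F2 IUO against F2 PNO 0 to 2 (1), F2 IUO against F1 IUO 2 to 9 (6), F2 PNO against F1 PNO 1 to 7 (2) and F2 SAL against F1 SAL 0 throughout. Pseudocount 1 gave 1 in F1 IUO against F1 SAL. A filter at 1 FPKM gave 1 in F1 IUO against F1 SAL, F1 IUO against F1 PNO and F2 PNO against F1 PNO, and 0 in F2 PNO against F2 SAL and F2 IUO against F2 PNO, because fewer genes were tested. Without the filter F1 PNO against F1 SAL gave 0. Upper-quartile rescaling gave 2 in F2 IUO against F2 PNO, and all 24 libraries in 1 fit gave 2 there and in F2 PNO against F2 SAL.

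The replicate numbers did not pair the libraries: correlations of same-numbered libraries ran from -0.331 to 0.199. With the replicate block the counts were 1 in F1 IUO against F1 SAL, 2 in F2 PNO against F2 SAL and 1 in F2 PNO against F1 PNO, and genes past adjustment in F1 IUO against F1 PNO went from 23 to 2.

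Alternatives chosen after seeing the data were a choroid plexus covariate and leaving out the 6 libraries with the most Ttr. The covariate gave 2 in F1 PNO against F1 SAL, F2 PNO against F2 SAL and F2 IUO against F2 PNO, and 4 in F2 PNO against F1 PNO. Leaving out the 6 libraries gave 1 in F1 IUO against F1 SAL, 2 in F1 PNO against F1 SAL, F2 PNO against F2 SAL and F2 IUO against F1 IUO, and 0 in F2 PNO against F1 PNO. The cause of the other changes was not tested. Of 345 values of single genes under alternatives, 278 stayed on their side of the rule, 67 lost the call and 0 changed direction. The 278 include Eng in F1 IUO, F1 PNO and F2 PNO against saline. There Eng did not pass the rule with all libraries, so it had no call to lose. The share that kept a call is therefore lower than 278 of 345. Depth is unknown, so it cannot be said which low genes it limits.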
